A study of Mus musculus with 6 samples.

Results

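The 10 genes described here are Trp53, which encodes the transcription factor p53, and 9 genes known as its targets in mouse cells, namely Mdm2, Cdkn1a, Ccng1, Phlda3, Zmat3, Eda2r, Trp53inp1, Rrm2b and Aen. They were picked by symbol from the 41255 genes listed for the series, and all 10 passed the expression filter and were tested. The mRNA came from Ba/F3, a mouse lymphoid line that needs interleukin-3 to grow. The WT group held 3 cultures (clones 28, 29 and 36) that carried a retroviral human RPL10 cDNA of wild type sequence, and the R98S group held 3 cultures (clones 11, 13 and 35) with the RPL10 R98S cDNA, in which serine replaces arginine. The cultures shared a short hairpin RNA against the mouse Rpl10 gene, a short cycloheximide exposure before lysis, and an origin in a single-cell colony, so that each library is 1 clone and the number of clones a group limits how far clone and genotype can be separated. The Trp53 genotype of the line was not given in the sources used here, and no treatment that damages DNA was part of the design.

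p53 is kept low in unstressed cells because MDM2, a ubiquitin ligase, marks it for degradation. The Mdm2 gene is itself switched on by p53, which closes a negative feedback loop. When ribosome assembly is disturbed, free ribosomal proteins such as RPL5 and RPL11 can bind MDM2 and let p53 accumulate, and p53 then raises genes for cell-cycle arrest, DNA repair, metabolism and cell death. This control acts mainly on the p53 protein, whereas the measurements here are mRNA levels, and p53 protein was not analysed here.

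The p53 protein binds DNA as a tetramer on a pair of half-sites, and this element is the feature that links a target gene to p53. The promoter windows (RefSeq sequences, GRCm38.p6, from 250 bases before to 50 bases after the annotated start) were searched on both strands for the p53 full site of 20 bases with no spacer, allowing at most 2 mismatches and none in the C and G of either core. A window was given for 7 of the 10 genes, and Zmat3, Trp53inp1 and Rrm2b had none. A site was found in 2 of these 7 windows and in 106 of 27025 windows over all genes (0.392%). The sites of Cdkn1a and Ccng1 are shown with that of Rps27l, a further p53 target described later, because all have a single mismatch. Among 34 other p53 targets with a window, 2 had a site, Rps27l and Ckap2, and that of Ckap2 had 2 mismatches. Capitals mark bases that fit the full site, and lower case marks the 5 flanking bases and the mismatch.
Cdkn1a: ttcagGAACATGTCTtGACATGTTCagccc
Ccng1: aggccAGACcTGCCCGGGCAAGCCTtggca
Rps27l: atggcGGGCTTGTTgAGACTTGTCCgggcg
The Cdkn1a site lies at chromosome 17, 29090928 to 29090947, on the plus strand at position -51 from the nearer RefSeq start, and 2841 bases before the second start of the gene. The Ccng1 site lies at chromosome 11, 40755462 to 40755481, on the minus strand at position -195. The Rps27l site lies at chromosome 9, 66946296 to 66946315, on the plus strand at position -117. With at most 1 mismatch, 22 of the 27025 windows held a site (0.0814%). A match is a description of the sequence, and the absence of a match in the other windows says only that these letters are not within these 300 bases.

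The libraries held between 21786776 and 24204991 reads assigned to genes, and values are normalized read counts, that is reads after scaling by the library's size factor. A count of 3 reads, taken as the floor, equals 2.78 to 3.22 normalized counts. Rpl10, the target of the hairpin, had 2853, 3156 and 1900.4 normalized read counts in the WT clones and 3028, 1883 and 2617 in the R98S clones, with overlapping groups (adjusted p = 0.871), and reads of the human cDNA that align to the mouse gene cannot be told apart in this value. All 5 markers of an IL-3-dependent haematopoietic cell were above the floor in every library, whereas of 9 markers of a B-cell precursor Cd79a and Cd79b were above it in every library, and Pax5 did not exceed 2 reads. The summed IL-3-dependent markers ranged from 99434 to 119729 normalized counts in WT and from 135086 to 160317 in R98S, and the summed B-cell precursor markers from 1293 to 1404 and from 1642 to 1961, so that both sums separated by genotype. Of these markers, chosen for mention after their values were seen, Ptprc was lower (log2 fold change -1.33, limma adjusted p = 0.00894), and Cd79b (1.22, 0.0617), Csf2rb (0.53, 0.0509) and Csf2rb2 (0.62, 0.0178) were higher in R98S. Spi1 (-0.44, 0.206) and Il3ra (-0.18, 0.432) had negative fold changes and were not called. The IL-3-dependent sum was mostly Csf2rb and Csf2rb2, with WT means of 51875 and 41054 normalized counts. Spi1 had a WT mean of 1568 and Il3ra of 794, so this sum does not stand for all 5 markers. The part of these differences in the results on the p53 genes was not tested. None of the 4 T-cell, 3 erythroid or 4 fibroblast or epithelial markers was above the floor in every library. The erythroid marker Hba-a1, also mentioned after its values were seen, passed the expression filter through the WT clones. It was lower in R98S (log2 fold change -3.52, limma adjusted p = 0.0389), with 0, 6.12 and 0.925 normalized counts in R98S clones 11, 13 and 35. In such bulk RNA a change in the share of cells that express a gene and a change in the level per cell cannot be told apart.

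Of the 10 genes, 4 were higher in the R98S clones (Zmat3, Ccng1, Aen and Trp53), 2 were lower (Eda2r and Rrm2b), and 4 did not pass the test (Mdm2, Cdkn1a, Phlda3 and Trp53inp1). The test was limma on log2(normalized count + 1) over 11550 genes with Benjamini-Hochberg adjustment and a threshold of 0.1, and it called 23.9% of all tested genes, of which 10.7% were higher and 13.1% lower as shares of the genes tested. The WT and R98S values did not overlap for 6 of the 10 genes, against 37.3% of all tested genes. Eda2r is included in both counts, although it passed the expression filter only through the WT clones. The median log2 fold change was 0.37 over the 10 genes and -0.011 over all tested genes. Of the 10 values 8 were above 0, against 5667 of the 11550 tested genes. The count tests edgeR and DESeq2 on the recovered reads each called 6 of the 10 genes, against 23.8% and 26.9% of all genes they tested.

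**Figure D1:**
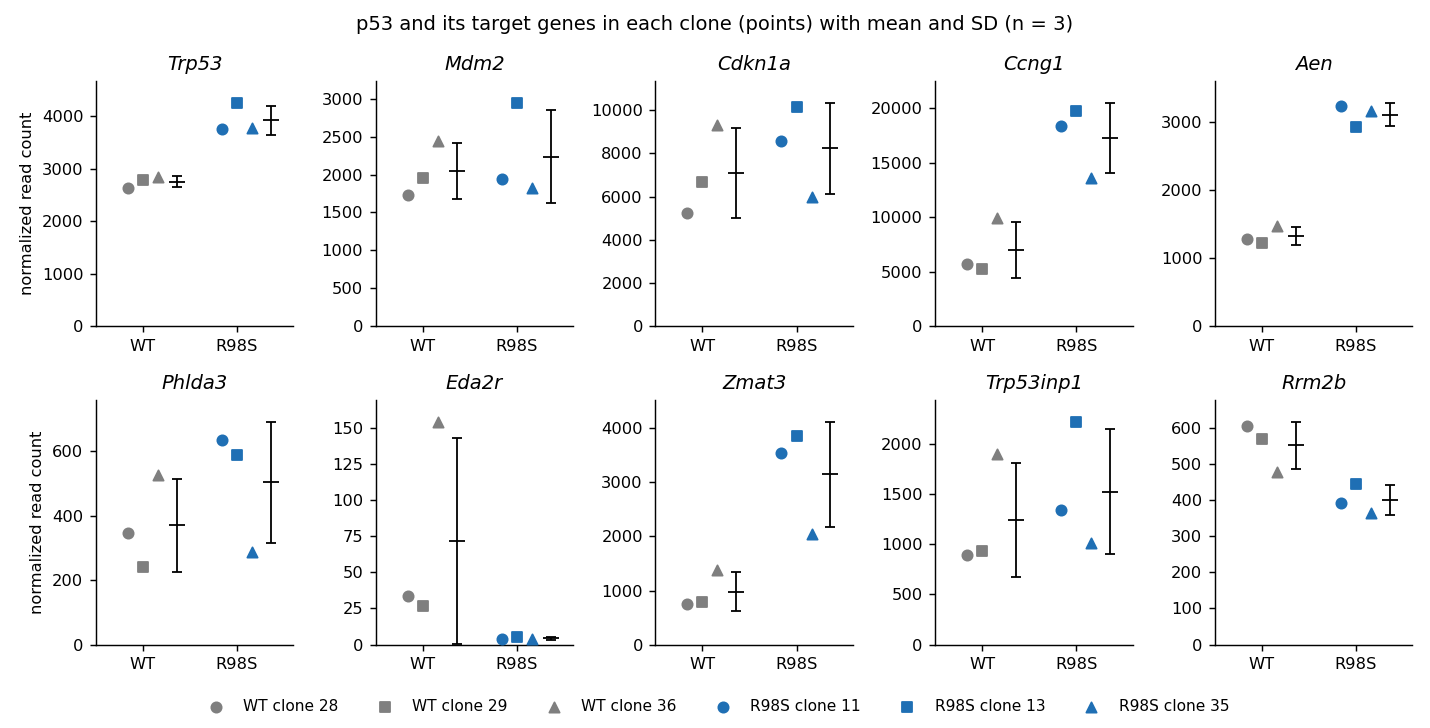
Normalized read counts (vertical axis, starting at 0 in each panel) of the 10 genes in the 3 WT clones (grey) and the 3 R98S clones (blue), with the mean and SD (n = 3) beside each group. The groups are apart for Trp53, Ccng1, Aen, Zmat3, Eda2r and Rrm2b, and overlap for Mdm2, Cdkn1a, Phlda3 and Trp53inp1.

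Trp53 itself (chromosome 11, 69580359 to 69591873, plus strand, GRCm38) was higher in R98S cells. WT clones 28, 29 and 36 had 2627, 2789.8 and 2835 normalized read counts, and R98S clones 11, 13 and 35 had 3751, 4243 and 3775. Values of the other genes are given in the same clone order. The spread within each group was small, and the lowest R98S clone exceeded the highest WT clone. The mean was 2751 ± 110 (SD, n = 3) in WT and 3923 ± 277 in R98S, a log2 fold change of 0.51 (SE 0.10, 95% interval 0.28 to 0.74, adjusted p = 0.0156), or a ratio of 1.43. Wrap53, whose gene lies 103 bases from Trp53 on the other strand and shares no exon with it in the annotation, had 338 ± 22.3 in WT and 397 ± 76.0 in R98S and did not pass the test (log2 fold change 0.22, adjusted p = 0.423).

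Mdm2 (chromosome 10, 117688875 to 117710758, minus strand), the ubiquitin ligase that is both target and inhibitor of p53, had 1732, 1957 and 2449 normalized read counts in the WT clones. The R98S clones had 1943, 2941 and 1827. Clone 13 was high among the R98S clones and clone 36 among the WT clones, and the other 4 values lay close together. The log2 fold change was 0.11 (SE 0.20, 95% interval -0.36 to 0.58, adjusted p = 0.745), and its interval covers changes in either direction. The fold change of Mdm2 turned negative without WT clone 28 (-0.0022) and without R98S clone 13 (-0.10).

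Among the genes that hold the cell cycle, Cdkn1a and Ccng1 differed in their result. Cdkn1a (chromosome 17, 29090976 to 29100727, plus strand) encodes p21, the inhibitor of cyclin-dependent kinases through which p53 halts the cell cycle, and carries the first site shown above. Its normalized read counts were 5260.4, 6686 and 9333 in the WT clones and 8565, 10135.8 and 5987 in the R98S clones. The ranges overlapped widely, with WT clone 36 above 2 of the R98S clones and R98S clone 35 below 2 of the WT clones. The mean was 7093 ± 2067 in WT and 8229 ± 2095 in R98S, and the log2 fold change of 0.22 (SE 0.25, 95% interval -0.34 to 0.78) did not pass the test (adjusted p = 0.573). In the annotation, 273 bases of its exons lie opposite another gene.

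Ccng1 (chromosome 11, 40748552 to 40755311, minus strand) encodes cyclin G1, which brings protein phosphatase 2A to MDM2, and carries the second site. It had 5729, 5213 and 9906 normalized read counts in the WT clones and 18330.1, 19739 and 13604.5 in the R98S clones. All R98S clones were above all WT clones, although WT clone 36 lay well above the other WT clones and R98S clone 35 below the other R98S clones. The mean rose from 6949 ± 2573 to 17224.5 ± 3213, or by a factor of 2.48, with a log2 fold change of 1.35 (SE 0.25, 95% interval 0.78 to 1.92, adjusted p = 0.0130).

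Of the genes with roles in cell death and survival, Aen rose, Eda2r fell, and Phlda3 and Trp53inp1 did not pass the test. Aen (chromosome 7, 78895854 to 78911209, plus strand), an apoptosis-enhancing nuclease, had 1277, 1226 and 1473 normalized read counts in the WT clones and 3239.7, 2922 and 3164 in the R98S clones. Its spread was small in both groups, and the groups were far apart. The mean was 1325 ± 130 in WT and 3109 ± 166 in R98S, or a factor of 2.35, with a log2 fold change of 1.23 (SE 0.11, 95% interval 0.98 to 1.49, adjusted p = 0.000579), the smallest adjusted p of the 10 genes.

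Eda2r (chromosome X, 97333840 to 97377216, minus strand) encodes a receptor of the tumour necrosis factor family that binds ectodysplasin A2. It had 33.8, 26.9 and 154 normalized read counts in the WT clones and 3.75, 5.10 and 3.70 in the R98S clones. The R98S values come from 4 or 5 reads each, just above the floor, so the gene passed the expression filter through the WT clones. WT clone 36 had 5.08 times the mean of the other WT clones. The WT mean was 71.6 ± 71.6 and the R98S mean 4.19 ± 0.80, a ratio of WT to R98S of 17.1, and the log2 fold change was -3.37 (SE 0.64, 95% interval -4.83 to -1.90, adjusted p = 0.0141). Without WT clone 36 the log2 fold change was -2.60 (adjusted p = 0.0165).

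Phlda3 (chromosome 1, 135766119 to 135769136, plus strand), which competes with the survival kinase AKT for membrane lipids, had 346, 239.6 and 526 normalized read counts in the WT clones. In the R98S clones it had 634, 589.9 and 289. R98S clone 35 lay inside the WT range, and the log2 fold change of 0.43 (SE 0.36, 95% interval -0.40 to 1.27) had an adjusted p of 0.447. Trp53inp1 (chromosome 4, 11156431 to 11174379, plus strand) encodes a stress protein that promotes p53 activity and autophagy. It had 895, 937 and 1903 normalized read counts in the WT clones and 1343, 2222 and 1012 in the R98S clones. In both groups 1 clone stood above the others, and the log2 fold change of 0.31 (SE 0.35, 95% interval -0.50 to 1.11) did not pass the test (adjusted p = 0.587) and turned to -0.0038 without R98S clone 13.

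The genes with roles in RNA and nucleotide metabolism moved in opposite directions. Zmat3 (chromosome 3, 32334792 to 32366014, minus strand), a zinc finger protein that binds RNA and acts on splicing, had 759, 788 and 1388 normalized read counts in the WT clones and 3554, 3858 and 2044 in the R98S clones. The groups did not overlap, and again WT clone 36 was the highest of its group and R98S clone 35 the lowest. The mean was 978 ± 355 in WT and 3152 ± 972 in R98S, a ratio of 3.22, and the log2 fold change of 1.69 (SE 0.30, 95% interval 1.01 to 2.37, adjusted p = 0.0111) was the largest rise among the 10 genes.

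Rrm2b (chromosome 15, 37923952 to 37961318, minus strand) encodes the small subunit of ribonucleotide reductase that supplies nucleotides for repair. It had 605, 569.6 and 478 normalized read counts in the WT clones and 391, 445 and 364 in the R98S clones. The highest R98S clone lay just below the lowest WT clone. The mean fell from 551 ± 65.4 to 399.9 ± 41.4, a log2 fold change of -0.46 (SE 0.15, 95% interval -0.81 to -0.11, adjusted p = 0.0785). This call was lost without WT clone 28 (log2 fold change -0.39, adjusted p = 0.265), WT clone 29 (-0.43, 0.214), R98S clone 11 (-0.45, 0.174) or R98S clone 35 (-0.39, 0.181), and 734 bases of its exons lie opposite an antisense gene.

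**Figure D2:**
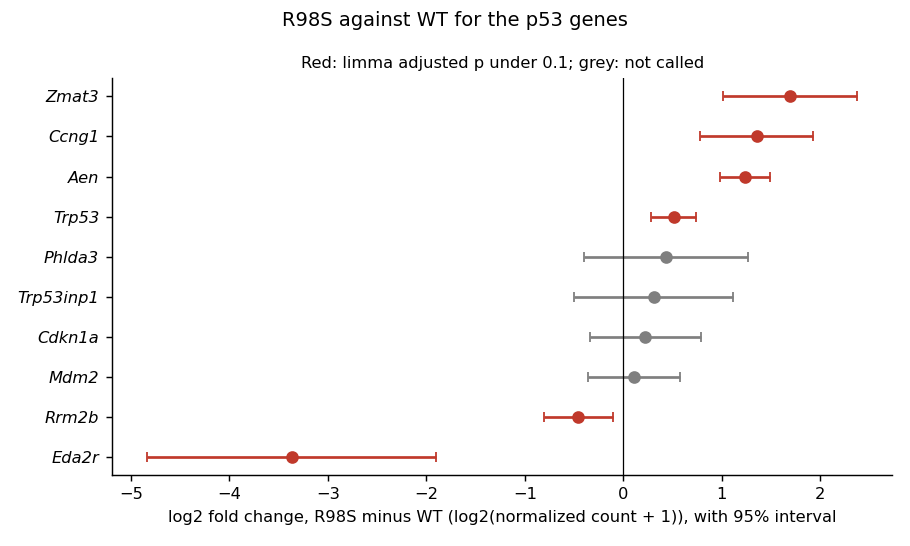
Log2 fold change of R98S minus WT (horizontal axis, on log2(normalized count + 1)) with its 95% interval from limma for the 10 genes, 3 clones a group. Red marks an adjusted p under 0.1: Zmat3 (1.69), Ccng1 (1.35), Aen (1.23) and Trp53 (0.51) lie above 0, Rrm2b (-0.46) and Eda2r (-3.37) below it, and the 4 grey intervals cross 0.

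Trp53, Ccng1, Zmat3 and Aen were called under all 17 alternative settings, and Eda2r under the 16 in which it could be tested. Eda2r was open to testing only through its WT clones, so its calls do not carry the same weight. The adjusted p over those settings ranged from 0.000123 to 0.0794 for Trp53, from 3.51e-06 to 0.0549 for Ccng1, from 1.55e-07 to 0.0502 for Zmat3, from 1.55e-18 to 0.00626 for Aen and from 1.77e-05 to 0.0540 for Eda2r. Rrm2b was called under 10 of 17 (0.0539 to 0.265), and Mdm2, Cdkn1a, Phlda3 and Trp53inp1 under none of the settings.

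The clones of a genotype differed from each other across these genes. WT clone 36 was the highest WT clone for 9 of the 10 genes, all but Rrm2b, whereas over all tested genes it was the highest WT clone for 36.4%. Relative to the mean of WT clones 28 and 29, its level was 2.08 times as high for Trp53inp1, 1.81 for Ccng1, 1.80 for Phlda3 and Zmat3, 1.56 for Cdkn1a, 1.33 for Mdm2, 1.18 for Aen and 1.05 for Trp53. It was 0.814 times as high for Rrm2b. More than 1.5 times the other WT mean was reached by 6 of the 10 genes and by 8.55% of all tested genes, and the median log2 difference was 0.75 over the 10 genes and -0.024 over all tested genes. The authors left out a WT36 library of total RNA from their polysome set, because it grouped with the R98S samples in a principal component analysis. That library is not among those used here.

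In the R98S group, clone 13 was highest for 8 of the 10 genes, all but Phlda3 and Aen, against 37.6% of all tested genes. R98S clone 35 was lowest for 8 of the 10, against 30.8%. The median log2 difference of clone 13 from the mean of its 2 sister clones was 0.42 over the 10 genes and 0.0041 over all tested genes. The median deviation of the 10 genes from their mean over the 6 libraries was -0.41 in clone 28, -0.35 in clone 29 and 0.13 in clone 36 (WT), and 0.20 in clone 11, 0.50 in clone 13 and -0.26 in clone 35 (R98S), so that WT clone 36 lay above R98S clone 35. These patterns were noticed in the same data and are given as a description. The summed T-cell markers ranged from 5.12 to 51.0 normalized counts over the WT clones and from 2.04 to 8.33 over the R98S clones, and the summed erythroid markers from 11.8 to 73.1 and from 2.78 to 12.2. The highest sums of both lists were those of WT clone 36, from Cd3g (43.0) and Hba-a1 (69.1), with Cd3e and Hbb-bs at 3 reads or fewer in every library, and their part in the result was not tested.

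Without WT clone 36 the fold change of Eda2r was smaller, and those of the other genes were larger. The log2 fold change without it was 0.44 for Cdkn1a (adjusted p = 0.237), 0.72 for Phlda3 (0.218), 0.66 for Trp53inp1 (0.186) and 0.25 for Mdm2 (0.467), and none of these passed the test. Leaving out some of the other clones made values smaller. Cdkn1a was at 0.025 without WT clone 28 and 0.054 without R98S clone 13. Phlda3 was at 0.16 without WT clone 29 and at 0.23 and 0.28 when R98S clone 11 or 13 was dropped. Trp53inp1 was at 0.11 without WT clone 28 and 0.15 without WT clone 29. Mdm2 was at -0.0022 without WT clone 28 and -0.10 without R98S clone 13. Without R98S clone 11, Trp53inp1 (0.36) and Mdm2 (0.195) were larger than in the main fit. Without R98S clone 35, Cdkn1a, Phlda3 and Trp53inp1 were larger, at 0.43, 0.79 and 0.56, and so was Mdm2 (0.24). Without WT clone 36, Ccng1 reached 1.64 (0.00288) and Zmat3 1.97 (0.00752).

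**Figure D3:**
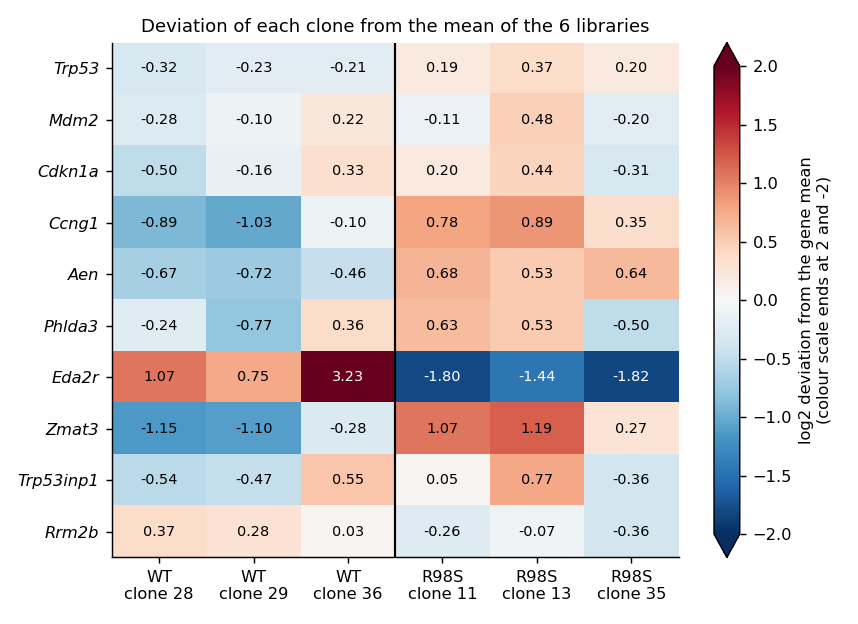
Log2 deviation of each of the 6 clones from the gene's mean over all libraries (colour and printed value; columns are clones, rows are the 10 genes). Trp53 and Aen split by genotype with small spread, whereas Mdm2, Cdkn1a, Phlda3 and Trp53inp1 are above their mean in WT clone 36 and R98S clone 13 and below it in R98S clone 35, and Eda2r reaches 3.23 in WT clone 36.

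Levels were compared between genes as normalized counts per kilobase of merged exons, averaged over the 6 libraries. Ccng1 had the highest level at 3442 (1484 to 5620 over the libraries), followed by Cdkn1a at 2156 (1481 to 2853), and their ranges overlapped. Trp53 followed at 825 (649 to 1049), below every Cdkn1a value and above every Mdm2 value. Mdm2 at 421 (341 to 579), Aen at 382 (211 to 558), Phlda3 at 281 (154 to 407), Trp53inp1 at 214 (138 to 343) and Zmat3 at 181 (66.4 to 337) each overlapped with the next gene in this order. Rrm2b stood lower at 52.1 (39.8 to 66.3), its highest value just below the lowest of Zmat3, and Eda2r was the lowest at 6.43 (0.628 to 26.2). The order differed between the groups: in WT Cdkn1a (1996) and Ccng1 (1979) had nearly the same mean level, whereas in R98S Ccng1 (4904) lay above Cdkn1a (2316). Aen was below Mdm2 and Phlda3 in WT (228, against 402 and 238) and above both in R98S (536, against 440.1 and 323), and Zmat3 was below Trp53inp1 in WT (85.5 against 192) and above it in R98S (276 against 236). With the longest transcript as the length, Cdkn1a (3683) came before Ccng1 (3442) and Zmat3 (265) before Trp53inp1 (255). These are averages over the 6 libraries, with Mdm2 at 681 and Aen at 447. The orders within each group were obtained with merged exons only and can change with the length.

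Trp53 and Ccng1 share chromosome 11 and the other genes lie on separate chromosomes. The shift of the 30 nearest tested genes was recorded because clones can differ over whole chromosome regions. The median log2 difference of these neighbours was 0.31 for Trp53inp1, 0.28 for Aen, 0.27 for Phlda3, 0.17 for Zmat3, 0.12 for Ccng1, 0.095 for Trp53 and 0.067 for Cdkn1a. After this shift was taken off in each library, the log2 fold change was 0.95 for Aen (adjusted p = 0.00234), 1.53 for Zmat3 (0.0123), 1.23 for Ccng1 (0.0238), 0.42 for Trp53 (0.0534) and -3.33 for Eda2r (0.0195). That of Trp53inp1 went to -0.0019 (0.998), that of Phlda3 to 0.16 (0.764), that of Cdkn1a to 0.15 (0.725), that of Mdm2 to 0.12 (0.766) and that of Rrm2b to -0.44 (0.104).

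Of 42 other known p53 targets, 35 were tested, 6 rose, 4 fell and 25 did not pass the test, with a median log2 fold change of 0.14. The share called was 28.6%, near the 23.9% over all tested genes. Bax, which opens pores in the mitochondrial membrane, had 1714, 1733 and 1689 normalized read counts in the WT clones and 3083, 2662 and 2784 in the R98S clones. Its groups lay far apart beside their spread (log2 fold change 0.73, adjusted p = 0.00463). Dglucy, a D-glutamate cyclase, rose from 984 ± 269 to 2314 ± 210.1 (1.26, 0.00631). Rps27l, a ribosomal protein S27 paralogue that carries the third site shown above, rose from 4329 ± 197 to 6675 ± 977 (0.62, 0.0168). Ckap2, the other gene of this list with a site, was not called (-0.35, 0.244). Bloc1s2, a subunit of a complex of lysosome-related organelles, rose from 1518 ± 190.2 to 2178 ± 15.7 (0.53, 0.0251). Ercc5, a nuclease of nucleotide excision repair with 383, 405 and 442 in WT and 663, 713 and 492 in R98S, rose by 0.59 on the log2 scale (0.0532). The call of Ercc5 was lost without WT clone 28 (adjusted p = 0.171), WT clone 29 (0.140) or R98S clone 11 (0.152), and with the regional shift removed (0.29 on the log2 scale, adjusted p = 0.171). The list had 12 calls without WT clone 36, 9 without R98S clone 13, 6 without R98S clone 35, 5 without R98S clone 11 and 4 without WT clone 28 or 29. In the same order of clones, 2514, 3219, 2007, 1578, 1327 and 1464 of all genes were called. The main fit called 2755.

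Other genes of the death pathways were lower or were not called. Bbc3, which encodes the pro-death protein PUMA, had 1003, 1249.8 and 823 normalized read counts in the WT clones and 561, 738 and 577 in the R98S clones. The groups did not overlap, and it fell by 0.70 on the log2 scale (adjusted p = 0.0393). The call was lost without WT clone 28 (0.114), WT clone 29 (0.125), R98S clone 11 (0.123) or R98S clone 35 (0.108). The death receptor gene Fas fell from 299 ± 59.0 to 177 ± 49.7 (-0.77, 0.0789), a call that was lost without any single WT clone (0.103, 0.187 and 0.176 for clones 28, 29 and 36), without R98S clone 13 (0.101) or without R98S clone 35 (0.180). It was also lost without the intensity trend (0.105) and with the regional shift removed (-0.55, 0.186). Pmaip1, which encodes NOXA, had at most 2 reads in any library and was not tested. Sesn2, a stress gene that restrains mTORC1, had 2562 ± 419 in WT and 2276 ± 237 in R98S (-0.16, 0.483). The other called genes, chosen for mention after their values were seen, were Tigar (-0.69, 0.0561) and Gadd45a (-0.78, 0.0857), which were lower, and Ak1 (2.03, 0.0663), which was higher. The groups overlapped for Gadd45a and Ak1, and the calls of Tigar, Gadd45a and Ak1 were not followed over the left-out clones.

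Most regulators of p53 did not pass the test. Of 18 listed, 17 were tested, and 1 rose and 1 fell (11.8% called, against 23.9% of all tested genes, median 0.22). The damage kinase gene Atm rose from 2311 ± 308 to 3175 ± 370.0 (log2 fold change 0.46, adjusted p = 0.0557), and its relative Atr fell from 3637 ± 139 to 2808 ± 281 (-0.38, 0.0513). Both calls were lost without WT clone 28 (Atm 0.198, Atr 0.155), WT clone 29 (0.146, 0.124) or R98S clone 35 (0.145, 0.108), that of Atm without R98S clone 11 (0.123) or without the intensity trend (0.101) and that of Atr without WT clone 36 (0.106). Neither of these passed a threshold of 0.05, at which no gene of the list was called by limma, with 2 genes at an unadjusted p under 0.05, and edgeR and DESeq2 called 2 each at 0.1. Without R98S clone 13 the list had 4 calls, and 3219 of all genes were called there, against 2755 in the main fit. Mdm4, the partner of MDM2 that masks the p53 activation domain, had 3851 ± 817 in WT and 4891 ± 984 in R98S (0.34, 0.260). Cdkn2a, whose ARF product inhibits MDM2, ranged from 17.4 to 139 in the WT clones and from 38.8 to 154 in the R98S clones (0.50, 0.697), and its sign turned without WT clone 28 (-0.38). Of the p53 relatives, Trp63 had 59.9 ± 16.8 and 90.6 ± 34.0 (0.56, 0.293), and Trp73 had at most 2 reads in any library.

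Among the 12 genes that connect ribosome assembly to MDM2, all of which were tested, 3 rose and 0 fell (median 0.27). The share called was 25%, all of it higher. Over all tested genes, 23.9% were called in either direction and 10.7% were called higher. The fold change was above 0 for 11 of the 12 genes and for 5667 of the 11550 tested genes. Ncl, which encodes the nucleolar protein nucleolin, had 41535, 39045 and 39702 normalized read counts in the WT clones and 92415, 70773 and 62977 in the R98S clones. The R98S clones were all higher but spread widely (log2 fold change 0.89, adjusted p = 0.0119). Gnl3, or nucleostemin, rose from 3657 ± 281 to 6097 ± 1040.3 (0.73, 0.0138), and Rps3 from 44235 ± 571 to 64625 ± 7695 (0.54, 0.0305). The call of Rps3 was lost without WT clone 28 (0.121), WT clone 29 (0.107) or R98S clone 11 (0.105). Rpl5 had 32637 ± 1301 in WT and 34439 ± 2605 in R98S (0.076, 0.685), and Rpl11 12948 ± 124 and 14414 ± 1077.5 (0.15, 0.339). With the regional shift removed the list had 7 calls, and Rpl11 was among them (0.34, adjusted p = 0.0663). Over all genes, 2869 were called in that setting and 2755 in the main fit.

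Of 15 cell-cycle genes known to be lowered through p21, 3 were higher and 2 lower in R98S cells (33.3% called, against 23.9% of all tested genes), with a median of -0.083. The genes that rose included the cyclin A2 gene Ccna2 (0.62, adjusted p = 0.0440) and the mitotic kinase gene Plk1 (0.44, 0.0497). The cyclin B2 gene Ccnb2 (-0.68, 0.0468) and the kinesin gene Kif23 (-0.57, 0.0750) fell. The number called was 1 without WT clone 28, 2 without WT clone 29 or R98S clone 11, 3 without R98S clone 35, 4 without R98S clone 13 and 5 without WT clone 36. Of all genes, 1327, 1464, 1578, 2007, 3219 and 2514 were called in the same order of clones. Each of the 4 genes named here lost its call without at least 1 clone, and the adjusted p then reached 0.146 for Ccna2 without WT clone 28, 0.182 for Plk1 without WT clone 28, 0.138 for Ccnb2 without R98S clone 11 and 0.208 for Kif23 without R98S clone 11. Plk1 also lost it with the regional shift removed (0.081 on the log2 scale, adjusted p = 0.654), and Kif23 without the intensity trend (0.129) and with upper quartile scaling (0.101).

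**Figure D4:**
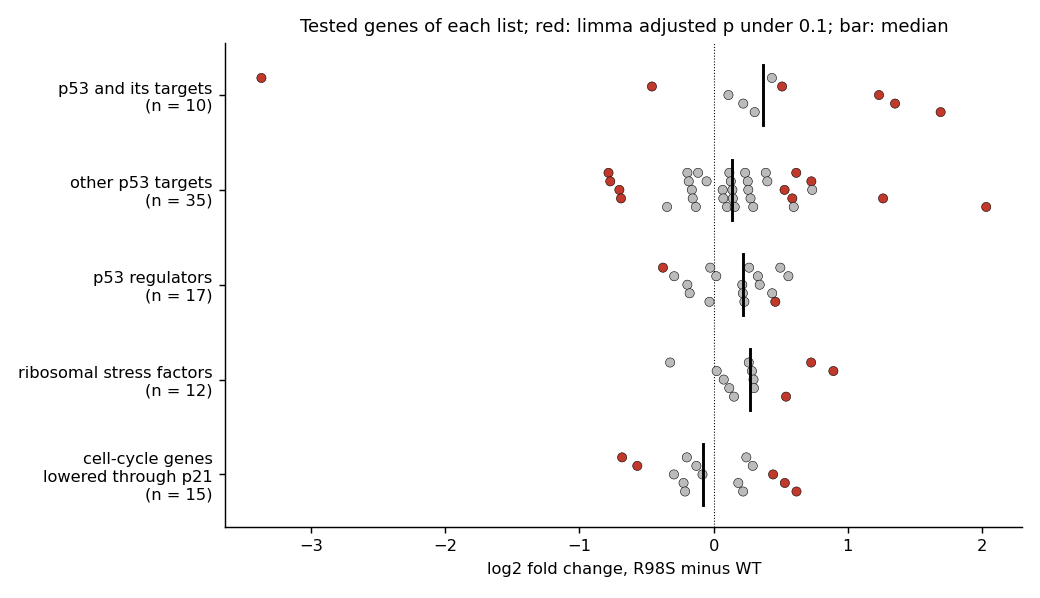
Log2 fold change of R98S minus WT (horizontal axis) for each tested gene of 5 lists, with the list median as a bar and genes with a limma adjusted p under 0.1 in red. The medians are 0.37 for p53 and its targets, 0.14 for the other targets, 0.22 for the regulators, 0.27 for the ribosomal stress factors and -0.083 for the cell-cycle genes.

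The genes whose profile over the 6 libraries was most like that of Cdkn1a, by Pearson's r of log2(normalized count + 1) among 10050 genes with a mean of at least 50, were Myom1 and Ikbke (both 0.970) and Tmem176a (0.968). Those most like Mdm2 were Plekha2 (0.986), 1110051M20Rik (0.982) and Gpsm1 (0.981). With 6 points that share libraries and size factors, such values are a description.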

How the data were processed

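Polyadenylated RNA of 6 Ba/F3 clones was sequenced from TruSeq stranded libraries, 1 per clone. The authors removed ribosomal and transfer RNA reads with Bowtie2, aligned the rest to mm10 with TopHat and counted exon reads per gene, for which the submitters' processing notes list HTSeq. The annotation and strand setting are not given in the sources used here, so reads of overlapping antisense genes cannot be assigned. Deposited was 1 signal value per gene and library, the authors' read count after division by the DESeq2 size factor. In all libraries 100% of values were whole multiples of 1 read (within 0.01 read), and reads were recovered from them. With 1 library per clone, technical spread and the spread between clones cannot be told apart.

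Groups came from the clone labels. Clones are separate cultures of single-cell origin. Differences were tested with limma 3.58.1 (R 4.3.3, intensity trend, two-sided) on log2(normalized count + 1) for genes with a mean of at least 10, adjusted over all of them. This scale understates changes of low genes. The threshold of 0.1 is that of the study. Alternatives were pseudocounts of 0.5 and 5, no filter, a minimum mean of 50, 2 other scalings, no trend, a threshold of 0.05, leaving out each clone, edgeR 4.0.16, DESeq2 1.42.0, and subtraction, in each library, of the median deviation of the 30 nearest tested genes. Scripts were tested on simulated data.

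The 10 genes and all lists were chosen with earlier results of these data known. Named were the 10 genes, Wrap53, Bbc3, Bax, Pmaip1, Fas, Sesn2, Mdm4, Cdkn2a, Trp63, Trp73, Rpl5, Rpl11 and Rpl10 whatever their values, the called genes of each other list (at most the 6 of smallest p), and the 3 genes most like Cdkn1a and Mdm2. Any other gene was chosen after its values were seen. Of the called cell-cycle genes, 1 is not reported here. Tigar, Dglucy, Cop1 and Nop53 were found under older symbols. Positions and exon lengths are from GENCODE M21 (GRCm38), in which 37863 of 41255 symbols matched a single gene.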

Additional observations from a re-analysis of the deposited data

How the results depend on the processing

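No paired analysis was possible because the clone numbers of the WT and R98S groups differ. The number of the 10 genes called was 5 or 6 under all settings, and the number higher was 4. The number lower was 1 with no expression filter, a minimum mean of 50 (where Eda2r could not be tested), a threshold of 0.05 or the regional shift removed, and 1 to 2 when single clones were left out. Rrm2b kept a log2 fold change of -0.46 but missed the threshold with no filter (adjusted p = 0.130) and at 0.05 (0.0785), and had -0.44 with the regional shift removed and -0.56 to -0.39 over the left-out clones. Mdm2 ranged from -0.10 to 0.25 and Trp53inp1 from -0.0038 to 0.66 over the left-out clones, and Trp53inp1 was at -0.0019 with the regional shift removed. Cdkn2a ranged from -0.38 to 1.09.

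Over all genes, 1722 were called at 0.05 (776 higher, 946 lower) against 2755 at 0.1 (1241 higher, 1514 lower), and 1327 to 3219 over the left-out clones (591 to 1432 higher, 736 to 1787 lower). With the regional shift removed 2869 genes were called, and without the trend 2374. The other p53 targets had 5 calls at 0.05 and 4 to 12 over the left-out clones. The regulators had 1 call without the trend, 0 at 0.05, 6 with the regional shift removed and 0 to 4 over the left-out clones. The 0 calls arose in limma without WT clone 28, WT clone 29 or R98S clone 35, with 2, 2 and 6 genes at an unadjusted p under 0.05. The ribosomal stress list had 7 calls with the regional shift removed, and the cell-cycle list 1 to 5 over the left-out clones. The cause of these changes was not tested. The left-out fits hold fewer samples, and the highest count over all genes, 3219, was that without R98S clone 13. Scaling to the same total or upper quartile moved the median of all genes from -0.011 to 0.010 and 0.030, and the share of calls that were higher from 45.0% to 48.4% and 52.6%, with 4 of the 10 genes higher and 2 lower in each. For the other named genes, outside the left-out clones, 251 values kept their direction and call status, 12 lost the call and 1 gained it. Over the left-out clones, 106 values kept both, 37 lost the call and 1 changed sign. Some of these genes, such as Rpl5 and Sesn2, were not called in the main fit. The sites of Cdkn1a and Ccng1 were found under both mismatch limits. The 5 kb around the gene starts were not searched, and the depth limits Eda2r in R98S cells, where 4 or 5 reads were counted.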

Other observations

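Further p53 targets, chosen after their values were seen, also stood out in WT clone 36. Btg2, an anti-proliferative gene, had 403, 391 and 1751 normalized read counts in the WT clones (28, 29, 36). In the R98S clones (11, 13, 35) it had 857, 1861 and 801. WT clone 36 had 4.41 times the mean of the other WT clones, the groups overlapped, and the log2 fold change of 0.73 had an adjusted p of 0.419 by limma. Ak1, adenylate kinase 1, had 81.9, 43.0 and 250.2 in the WT clones and 389, 717 and 222 in the R98S clones, with clone 36 at 4.01 times the other WT mean and R98S clone 35 inside the WT range. Psrc1, a spindle protein gene, had 510.0, 361 and 991 in the WT clones and 857, 857 and 426 in the R98S clones, a log2 fold change of 0.26 (adjusted p = 0.692). Over the 35 other targets tested, WT clone 36 was above the mean of its sister clones for 25, with a median log2 difference of 0.17, against 46.5% of all tested genes. R98S clone 13 was likewise above its sister clones for 25 of 35, with a median of 0.24, against 50.4% of all tested genes.

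Of the listed targets and regulators, 8 did not reach the expression filter, namely Pmaip1, Perp, Dram1, Plk2, Gdf15, Trp53cor1, Ephx1 and Trp73. Gdf15 and Dram1 had at most 7 reads in any library.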
